A study of Mus musculus with 64 samples.

Results

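The mitochondrially encoded genes were followed across 4 cell populations of the mouse heart, taken 3 days after surgery. They were chosen by position: every gene that the expression table places on the mitochondrial chromosome (MT) was a member, which gave 22 of 20637 genes. These were 7 protein coding genes (mt-Nd1, mt-Nd2, mt-Nd4, mt-Nd5, mt-Nd6, mt-Cytb and mt-Co1), both ribosomal RNA (rRNA) genes (mt-Rnr1 and mt-Rnr2) and 13 transfer RNA (tRNA) genes. The GENCODE M21 annotation of GRCm38 lists 37 mitochondrial genes, and the other 15, of which 6 are protein coding and 9 are tRNA genes, were not analysed here. No coding member belongs to complex V. All mice were of the outbred CD1 strain. Cells came from hearts with a myocardial infarction (MI) or a sham operation made at postnatal day 56 (P56, adult males) or at postnatal day 1 (P1). Adult MI was made by permanent ligation of a coronary artery. The 16 groups, each with 4 libraries (64 in all), were P56 MI, P56 sham, P1 MI and P1 sham in each of cardiomyocytes, fibroblasts, leukocytes and endothelial cells. Fibroblasts (CD90+/CD45-/CD31-), leukocytes (CD45+) and endothelial cells (CD31+/CD45-) were sorted by flow cytometry, whereas cardiomyocytes were separated by density without a sort. In the neonatal groups 6 ventricles were pooled and stirred in enzyme, while adult hearts were digested by perfusion, so age, dissociation and any difference in sex cannot be told apart. Whether the libraries of a group come from different pools or animals is not in the labels, and the p-values therefore cover only the spread among these libraries, part of which may be technical.

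The mitochondrial genome is a small circle that is copied into long RNAs from both strands. In these RNAs the tRNAs lie between most rRNA and coding sequences, and cutting the tRNAs out releases the rRNAs and messenger RNAs. The rRNAs build the mitochondrial ribosome, the tRNAs serve it, and the coding genes give core subunits of the respiratory chain: mt-Nd1, mt-Nd2, mt-Nd4, mt-Nd5 and mt-Nd6 for complex I, mt-Cytb for complex III and mt-Co1 for complex IV. All other proteins that copy, cut, stabilise and translate these RNAs come from nuclear genes. The beating heart muscle cell is densely packed with mitochondria.

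In the table, mt-Rnr1 lay at 70 to 1024, mt-Rnr2 at 1094 to 2675, mt-Nd1 at 2751 to 3707, mt-Nd2 at 3914 to 4951, mt-Co1 at 5328 to 6872, mt-Nd4 at 10167 to 11544, mt-Nd5 at 11742 to 13565 and mt-Cytb at 14145 to 15288 of MT, all on the plus strand. mt-Nd6 is read from the minus strand at 13552 to 14070, and its end overlaps the end of mt-Nd5 from 13552 to 13565. Of the 13 tRNA genes 6 are on the minus strand. The results turn on 3 of those 6, given here as their RNA is read, 5′ to 3′, with the anticodon in capitals. They are the tRNAs with the highest levels, and the sequences are transcripts of GENCODE M21 (GRCm38). mt-Tc carries cysteine (chrMT:5192-5257), mt-Tq carries glutamine (chrMT:3772-3842) and mt-Tp carries proline (chrMT:15356-15422).
mt-Tc: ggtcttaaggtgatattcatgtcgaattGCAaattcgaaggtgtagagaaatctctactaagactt
mt-Tq: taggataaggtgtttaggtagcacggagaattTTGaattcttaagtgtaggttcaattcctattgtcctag
mt-Tp: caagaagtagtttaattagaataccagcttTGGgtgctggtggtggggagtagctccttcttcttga
The tRNA genes are 59 to 75 bases long and the reads were 50 bases long, so a read from a mature tRNA cannot be told apart from a read of an uncut precursor. Reads could also be lost to nuclear copies of mitochondrial sequence. In a search of every 50-base window against the annotated transcripts, mt-Nd4 shared 62.23% of its windows with another transcript, mt-Co1 51.14%, mt-Nd2 8.19%, mt-Nd5 7.61% and mt-Rnr2 1.04%, and the other 17 members shared none. The levels of mt-Nd4 and mt-Co1 are therefore uncertain relative to other genes.

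Levels are the authors' normalised read counts, named CPM, from 9.59 to 27.5 M recovered reads per library (median 20.6 M). A floor of 3 reads was 0.102 to 0.409 CPM, and it covers counting error only. The kit removed rRNA before sequencing, so rRNA values are what the depletion left. Nuclear 18S rRNA took over 5% of reads in 7 libraries: P56 sham cardiomyocyte replicate 1, P1 sham cardiomyocyte replicate 2, P1 MI fibroblast replicates 1 and 2, P1 sham fibroblast replicate 4, P56 MI leukocyte replicate 1 and P1 sham leukocyte replicate 4. In these 7 the level per kilobase of mt-Rnr2 was 1.35 to 4.21 times that of mt-Rnr1, against 2.85 to 7.73 times in the other libraries. Markers of leukocytes, fibroblasts and endothelial cells each separated their own libraries from the rest. The summed level of 12 leukocyte markers was at least 2164 CPM in every leukocyte library and at most 476 CPM elsewhere. That of 13 fibroblast markers was at least 30793 CPM in every fibroblast library and at most 7568 CPM elsewhere, and that of 14 endothelial markers at least 10118 CPM in every endothelial library and at most 5131 CPM elsewhere. Cardiomyocyte markers did not separate the cardiomyocytes and were not at 0 in any group: the sum of 14 was 204917 to 246582 CPM in P56 sham cardiomyocytes, 48864 to 78634 CPM in P1 sham cardiomyocytes and 82238 to 226417 CPM in P56 sham leukocytes. In bulk samples fewer cells of a type and less RNA per cell cannot be told apart.

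Mitochondrial transcripts had their highest mean levels in cardiomyocytes, above all in those of P56 hearts. The 22 members took 27.8 to 41.3% of all reads in P56 sham cardiomyocytes, 10.3 to 23.6% in P56 sham leukocytes, 2.40 to 4.66% in P56 sham endothelial cells and 1.43 to 2.33% in P56 sham fibroblasts. The summed level of the 7 coding genes was 70089, 93872, 74306 and 88435 CPM in the 4 P56 sham cardiomyocyte libraries and 36635, 26204, 22354 and 27657 CPM in the 4 P1 sham cardiomyocyte libraries. In leukocytes the same sum was 80438, 24335, 21071 and 31059 CPM in P56 sham and 11172, 12374, 22095 and 18129 CPM in P1 sham. Leukocytes came second at both ages, and replicate 1 of the P56 sham leukocytes lay within the range of the P56 sham cardiomyocytes. Endothelial cells had 4419 to 9279 CPM in P56 sham and 3133 to 6457 CPM in P1 sham, and fibroblasts had 3382 to 4517 CPM in P56 sham and 2684 to 3716 CPM in P1 sham. The ranges of endothelial cells and fibroblasts overlap at both ages. As a share of all reads the coding sum was 2.79 to 4.58% in P56 sham cardiomyocytes and 2.07 to 3.59% in P1 sham cardiomyocytes, and on this scale the groups overlap.

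**Figure D1:**
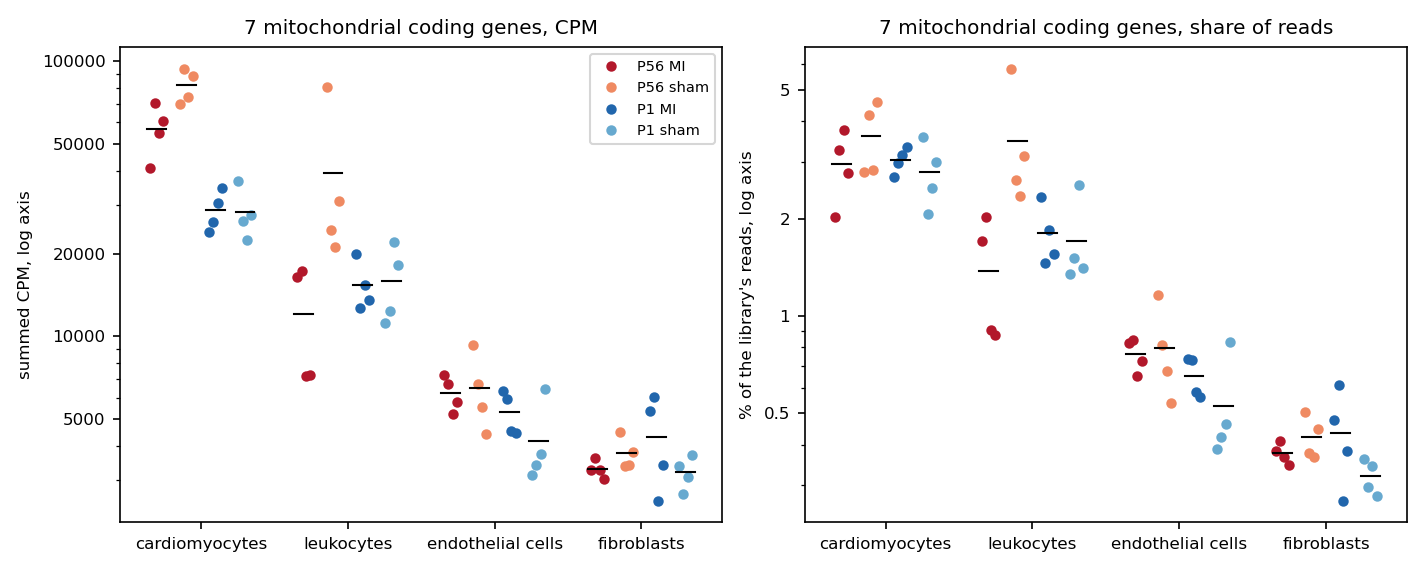
Summed level of the 7 mitochondrial coding genes in CPM (left) and as a percentage of all reads (right), both on log axes, for the 16 groups. Dots are libraries and bars are means of 4. P56 cardiomyocytes stand highest in CPM, while in share of reads P56 sham and P1 sham cardiomyocytes overlap.

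At P56, 19 of the 22 members were higher in sham cardiomyocytes than in each of the 3 other populations at an adjusted p under 0.05 (limma on log2(CPM + 0.5)). Over all 17618 genes tested, 26.8% met this rule. The 19 included all 7 coding genes and both rRNAs, and mt-Te, mt-Tl1 and mt-Tl2 were left out. mt-Tn and mt-Tv passed the filter on low values only with the help of the P56 sham cardiomyocyte libraries, so their calls add no support. At P1, 7 of 22 met it, against 16.4% of all genes: mt-Co1, mt-Nd1, mt-Cytb, mt-Tc, mt-Tq, mt-Tm and mt-Ta. Against leukocytes, the nearest population, the log2 difference of mt-Co1 was 1.36 ± 0.347 (adjusted p = 0.000779) at P56 and 0.94 ± 0.347 (adjusted p = 0.018) at P1. For mt-Cytb it was 0.80 ± 0.311 (adjusted p = 0.0212) at P56 and 0.70 ± 0.311 (adjusted p = 0.0492) at P1. For mt-Tc it was 3.21 ± 0.320 (adjusted p = 1.79e-10) at P56 and 1.48 ± 0.320 (adjusted p = 0.000178) at P1. mt-Nd6, the coding gene of the minus strand, differed by 0.97 ± 0.320 (adjusted p = 0.00705) at P56 and by 0.16 ± 0.320 (adjusted p = 0.673) at P1. With libraries scaled to reads of nuclear genes the P56 count was 12, and as a share of all reads it was 10.

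Per kilobase, mt-Rnr2 had the highest level in all 16 groups. In P56 sham cardiomyocytes it averaged 403007 ± 140586 CPM per kilobase (SD, n = 4), and mt-Rnr1 followed with 76663 ± 23465. The tRNA mt-Tc came next with 38781 ± 16278 CPM per kilobase, and its difference from mt-Co1, 31651 ± 5014, was within the spread. The order went on with mt-Nd1 at 15901 ± 1844, mt-Cytb at 7449 ± 1355, mt-Tp at 4572 ± 3654, mt-Tq at 3932 ± 1265 and mt-Nd2 at 3338 ± 492 CPM per kilobase. mt-Tp, mt-Tq and mt-Nd2 were within each other's spread. mt-Nd4 at 1646 ± 335 and mt-Nd5 at 1548 ± 74.3 CPM per kilobase did not differ beyond their spread, and mt-Nd6, at 923 ± 230.1, was the lowest coding gene. Levels were divided by the full length, while mt-Nd4 shared 62.23% and mt-Co1 51.14% of their windows with other transcripts. The places of mt-Nd4 and mt-Co1 in this order, also beside mt-Nd5 and mt-Tc, are therefore uncertain. In P1 sham cardiomyocytes mt-Tc had rank 6 with 2502 ± 1171 CPM per kilobase, below mt-Co1 at 10873 ± 2753, mt-Nd1 at 5010.4 ± 1084 and mt-Cytb at 3389 ± 744. Its rank was 3 in P56 sham cardiomyocytes, 4 in P56 MI cardiomyocytes and 6 in the other 14 groups.

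In sham cardiomyocytes every member was higher at P56 than at P1. All 22 were called at an adjusted p under 0.05, while 33.3% of the 15461 genes tested were called higher and 37.0% lower. The median log2 fold change was 1.56 over the 7 coding genes and -0.0915 over all genes tested. All 22 passed the filter on low values, mt-Tl2 only with the help of the P56 sham libraries, so its call adds no support. mt-Ti, mt-Tn, mt-Ts2, mt-Tt and mt-Tv reached 1 CPM in 8 cardiomyocyte libraries, 4 of them outside P56 sham, and in no P1 sham library. Their calls with age add no support either. Markers moved with age in these unsorted cells. All 14 cardiomyocyte markers were higher at P56, while 11 of 13 fibroblast, 10 of 12 leukocyte, 9 of 14 endothelial and 5 of 5 erythroid markers were lower. Fibroblast markers summed to 380.01 to 1130 CPM in P56 sham and 2568 to 6423 CPM in P1 sham, leukocyte markers to 35.4 to 152 CPM in P56 sham and 135 to 303 CPM in P1 sham, and erythroid markers to 2.66 to 86.7 CPM in P56 sham and 1306 to 1841 CPM in P1 sham. The part of other cells in the age difference was not tested. mt-Rnr2, the RNA of the large ribosomal subunit, had 657758, 557077, 931981 and 403410.1 CPM in the P56 sham libraries, against 132924, 135480.1, 55835 and 99601 CPM in the P1 sham libraries. mt-Rnr1, the RNA of the small subunit, had 94208, 83614, 72759 and 42271 CPM in P56 sham and 14584, 54579, 6470.5 and 9728 CPM in P1 sham. The groups do not overlap for mt-Rnr2 and overlap for mt-Rnr1 through P1 replicate 2, a library with much 18S rRNA. The log2 fold change was 2.61 ± 0.563 (adjusted p = 0.000452) for mt-Rnr2 and 2.23 ± 0.577 (adjusted p = 0.00211) for mt-Rnr1.

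Among the coding genes, mt-Nd2, a membrane subunit of complex I, had the largest fold change with age. It had 2724, 3777, 3530.2 and 3829.7 CPM in P56 sham cardiomyocytes and 787, 1001, 529.9 and 766 CPM in P1 sham cardiomyocytes, and its log2 fold change was 2.19 ± 0.257 (adjusted p = 4.96e-07). All P56 libraries were above all P1 libraries. mt-Cytb, the complex III subunit that carries the b-type hemes, had 6836, 10419, 7804 and 9027 CPM in P56 sham and 4703, 4199, 2700.2 and 3904 CPM in P1 sham. Its log2 fold change, 1.15 ± 0.254 (adjusted p = 0.000566), was the smallest of the 22 members. mt-Co1, the catalytic subunit of complex IV, had 42478, 57121, 42106 and 53901 CPM in P56 sham and 22930, 13712, 14158 and 16398 CPM in P1 sham, a log2 fold change of 1.56 ± 0.308 (adjusted p = 0.000193). Neither gene's groups overlap. mt-Nd6 had 645, 368, 426 and 479 CPM in P56 sham and 143, 234, 101 and 117 CPM in P1 sham, again with no overlap, and its log2 fold change was 1.73 ± 0.267 (adjusted p = 1.36e-05). The remaining complex I genes had log2 fold changes of 1.68 for mt-Nd1, 1.52 for mt-Nd4 and 1.51 for mt-Nd5.

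The log2 fold changes with age ran from 1.45 (mt-Tl2) to 5.16 (mt-Tq) over the 13 tRNAs and from 1.15 (mt-Cytb) to 2.19 (mt-Nd2) over the 7 coding genes, and the 2 ranges overlap. mt-Tc had 2112, 2274, 4133 and 1719 CPM in P56 sham cardiomyocytes and 280.3, 124, 138 and 118 CPM in P1 sham cardiomyocytes, a log2 fold change of 3.97 ± 0.427 (adjusted p = 1.66e-07). The lowest P56 library stood above the highest P1 library. mt-Tq had 218, 244, 413 and 242 CPM in P56 sham and 11.7, 2.70, 7.28 and 10.3 CPM in P1 sham, a log2 fold change of 5.16 ± 0.483 (adjusted p = 2.74e-08). mt-Tp had 612, 75.5, 392 and 146 CPM in P56 sham and 7.69, 3.55, 12.6 and 8.80 CPM in P1 sham, a log2 fold change of 4.83 ± 0.520 (adjusted p = 1.64e-07). Among tRNAs of the plus strand, mt-Tm, which carries methionine, had a log2 fold change of 4.62 and mt-Ti, which carries isoleucine, of 4.34. The call of mt-Ti adds no support, as above. High and low fold changes were thus found among tRNAs of both strands, since mt-Te of the minus strand had 1.89 and mt-Tl1 of the plus strand 2.31. Several tRNAs averaged under 1 CPM in P1 sham cardiomyocytes, for which the log2(CPM + 0.5) scale understates the difference.

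The size of the age difference in cardiomyocytes depends on the scale. The authors' scaling factors were 0.381 to 0.518 in P56 sham cardiomyocytes and 0.790 to 1.12 in P1 sham cardiomyocytes. As a share of all reads, the median log2 fold change of all genes was -1.10 and 16 members were called higher: both rRNAs, mt-Nd2 and the 13 tRNAs. Among these tRNAs mt-Tl2, mt-Ti, mt-Tn, mt-Ts2, mt-Tt and mt-Tv add no support, as above. On that scale mt-Cytb was -0.0385 (adjusted p = 0.905) and mt-Co1 0.37 (adjusted p = 0.228), whereas mt-Nd2 was 1.00 (adjusted p = 0.000653) and mt-Tc 2.78 (adjusted p = 7.35e-07). With libraries scaled to reads of nuclear genes, the median of all genes was -0.85 and 21 members were called, without mt-Cytb at 0.31 (adjusted p = 0.295). Relative to the median of all genes, mt-Cytb was 1.24 higher in CPM and 1.07 higher as a share of all reads, and mt-Nd2 was 2.28 and 2.11 higher.

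**Figure D2:**
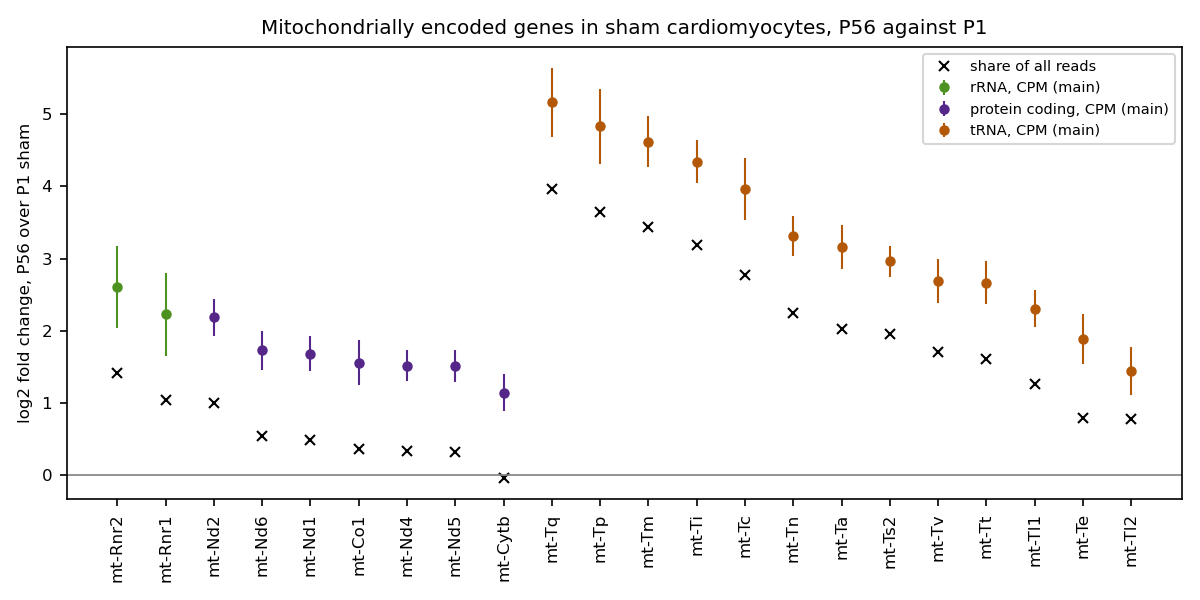
Log2 fold change of each of the 22 members in P56 over P1 sham cardiomyocytes on the log2(CPM + 0.5) scale, with the standard error as bars, and the same change as a share of all reads as crosses. mt-Tq has the highest and mt-Cytb the lowest value, and the cross of mt-Cytb lies at about 0.

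Ratios between members do not depend on the scaling, and 3 of them, chosen after their values were seen, describe the mix. The level per kilobase of mt-Nd2 over that of mt-Cytb was 0.439, 0.399, 0.499 and 0.468 in the P56 sham cardiomyocyte libraries, against 0.184, 0.263, 0.216 and 0.216 in the P1 sham cardiomyocyte libraries. The ratio was 0.353 to 0.377 in P56 sham leukocytes and 0.226 to 0.274 in P1 sham leukocytes. It was 0.323 to 0.363 in P56 sham endothelial cells and 0.226 to 0.254 in P1 sham endothelial cells, and 0.270 to 0.283 in P56 sham fibroblasts and 0.170 to 0.202 in P1 sham fibroblasts. The 2 ages do not overlap in any of the 4 populations. The summed level of the 13 tRNAs was 4.37, 2.87, 6.88 and 2.51% of the coding sum in P56 sham cardiomyocytes and 0.846, 0.524, 0.739 and 0.523% in P1 sham cardiomyocytes. In leukocytes it was 0.974 to 1.28% in P56 sham and 0.382 to 0.491% in P1 sham, in endothelial cells 0.849 to 1.03% and 0.337 to 0.471%, and in fibroblasts 0.719 to 0.870% and 0.357 to 0.509%. The ages again do not overlap in any population, and the P56 cardiomyocytes stand above every other sham library. Per kilobase, mt-Tc reached 116, 93.2, 229.8 and 74.7% of mt-Co1 in P56 sham cardiomyocytes and 16.9 to 28.6% in P1 sham cardiomyocytes. The height of these percentages is uncertain, since mt-Co1 may lose reads to shared sequence.

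**Figure D3:**
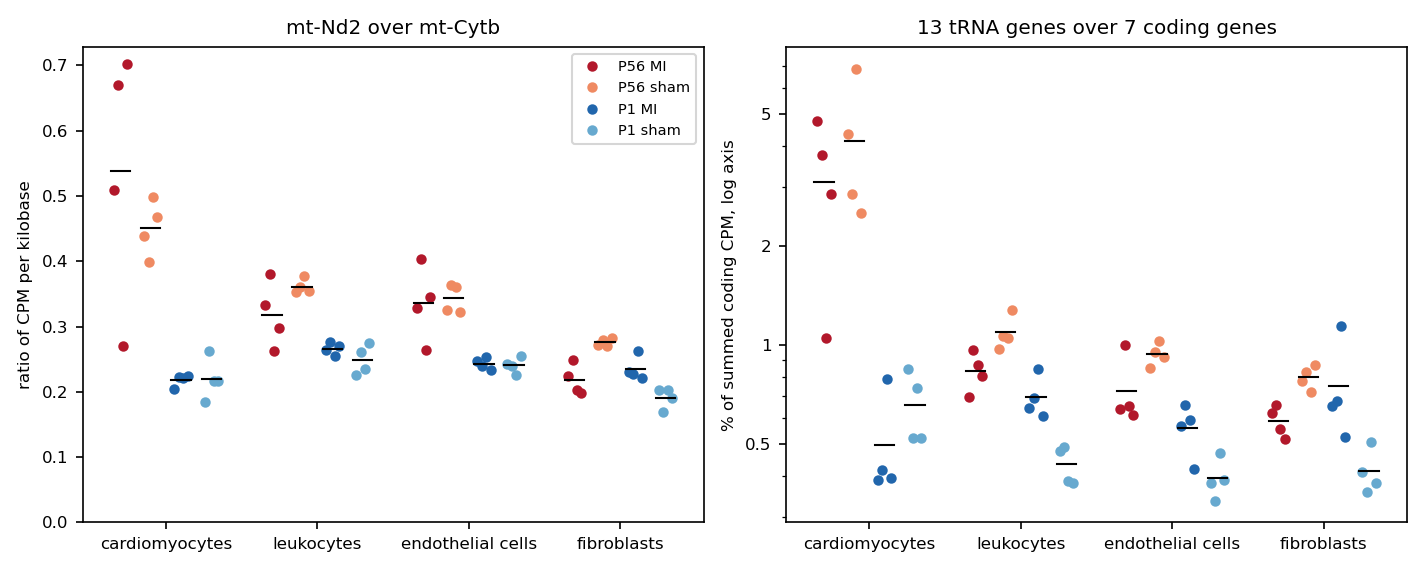
Level per kilobase of mt-Nd2 over mt-Cytb (left) and summed tRNA level as a percentage of the summed coding level, log axis (right), in the 16 groups. Dots are libraries and bars are means of 4. In every population the P56 sham libraries lie above the P1 sham libraries in both panels.

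After MI, mitochondrial transcripts of cardiomyocytes were called lower at P56 only in part. Of the 22 members 0 were called higher and 7 lower at P56, against 8.66% of all genes higher and 1.03% lower: mt-Nd6, mt-Ta, mt-Ti, mt-Tl1, mt-Tn, mt-Ts2 and mt-Tt. The median log2 fold change was -0.56 over the 7 coding genes and 0.0839 over all genes. mt-Nd6 had 154, 289, 339 and 241 CPM in P56 MI cardiomyocytes and 645, 368, 426 and 479 CPM in P56 sham cardiomyocytes. All MI libraries were below all sham libraries, and the log2 fold change was -0.93 ± 0.267 (adjusted p = 0.032). mt-Nd6 was not called with libraries scaled to reads of nuclear genes (adjusted p = 0.0572), as a share of all reads (0.132), without the libraries of over 5% 18S rRNA (0.0647), or without any 1 of P56 sham replicates 1 and 4 and P56 MI replicates 1 and 4 (0.0694 to 0.131). mt-Ta, which carries alanine, had 9.24, 15.2, 4.80 and 7.29 CPM in P56 MI and 15.0, 20.2, 30.5 and 19.1 CPM in P56 sham, a log2 fold change of -1.24 ± 0.309 (adjusted p = 0.014). Its groups overlap through MI replicate 2. mt-Ti had 4.04, 12.3, 5.06 and 4.77 CPM in P56 MI and 13.5, 20.1, 26.9 and 17.6 CPM in P56 sham, a log2 fold change of -1.60 ± 0.294 (adjusted p = 0.00139), with no overlap. mt-Tl1 lost its call without P56 sham replicate 2 or 4 or P56 MI replicate 1 (adjusted p = 0.0571 to 0.0851). mt-Tt lost it without P56 MI replicate 1 or 4 (0.0591 and 0.0611). mt-Tn lost it without P56 sham replicate 3 (0.0727), P56 MI replicate 4 (0.0841) or the libraries of over 5% 18S rRNA (0.0514). With a pseudocount of 0.1, mt-Tl1 (0.0503) and mt-Tn (0.0777) were not called.

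The other coding genes had lower means after MI at P56 and did not pass. mt-Nd2 had 1759, 3767, 1868 and 3246 CPM in P56 MI and 2724, 3777, 3530.2 and 3829.7 CPM in P56 sham, and its log2 fold change was -0.45 ± 0.257 (adjusted p = 0.299). For mt-Cytb the log2 fold change was -0.61 ± 0.254 (adjusted p = 0.143), and for mt-Co1 it was -0.55 ± 0.308 (adjusted p = 0.292). mt-Rnr2 had 370542, 526804, 158235 and 544012 CPM in P56 MI, a log2 fold change of -0.76 ± 0.563 (adjusted p = 0.441) against P56 sham, and mt-Rnr1 had 38569, 51602, 17622 and 50709 CPM, a log2 fold change of -0.94 ± 0.577 (adjusted p = 0.336). P56 MI cardiomyocyte replicate 3 was the lowest MI library for both rRNAs and for mt-Tc. Markers of leukocytes and fibroblasts moved with this comparison. Of 12 leukocyte markers 11 were higher after MI at P56, with summed levels of 146 to 416 CPM in P56 MI and 35.4 to 152 CPM in P56 sham cardiomyocytes. Of 13 fibroblast markers 4 were higher and 0 lower, with summed levels of 1574 to 3424 CPM in P56 MI and 380.01 to 1130 CPM in P56 sham, which do not overlap. The 14 cardiomyocyte markers, of which 0 were called, had sums of 172395 to 214827 CPM in P56 MI and 204917 to 246582 CPM in P56 sham. The part of other cells in the result was not tested. As a share of all reads 2 members were called, and mt-Nd6, mt-Tl1, mt-Tn, mt-Ts2 and mt-Tt were not (adjusted p = 0.0521 to 0.132).

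At P1 no member was called after MI in cardiomyocytes, in either direction, by limma or by edgeR, and 0 members had an unadjusted p under 0.05. Of all genes 0.285% were called higher and 0.0582% lower. mt-Rnr2 had 75289, 72675, 107303 and 139663 CPM in P1 MI and 132924, 135480.1, 55835 and 99601 CPM in P1 sham, and mt-Rnr1 had 7494, 7598, 10937 and 27364 CPM in P1 MI and 14584, 54579, 6470.5 and 9728 CPM in P1 sham. mt-Nd6 had 108, 163, 155 and 164 CPM in P1 MI and 143, 234, 101 and 117 CPM in P1 sham. The groups overlap for all 3, and the log2 fold change was -0.0721 ± 0.563 (adjusted p = 0.975) for mt-Rnr2 and 0.0455 ± 0.267 (adjusted p = 0.968) for mt-Nd6. The MI change was not shown to differ between the ages. In the test of the difference, 0 members were called by limma and 0 by edgeR, and 7 had an unadjusted p under 0.05, all lower at P56, against 1.69% of all genes called higher and 0.0582% lower. For mt-Nd6 the difference was -0.98 ± 0.377 (adjusted p = 0.208). Without the P56 sham and MI libraries numbered 3, 3 members were called, while the genes called in either direction rose from 270 to 3452 of 15461.

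In leukocytes, most members were higher at P56 than at P1 in sham hearts, and lower after MI at P56. Of the 22 members 19 passed the filter on low values, and mt-Tl1, mt-Ti, mt-Ta, mt-Ts2 and mt-Tt did so only with the help of the P56 sham libraries, so their calls add no support. With age 15 of 19 were called higher and 0 lower, against 32.5% of 16239 genes higher and 34.5% lower. Those not called were mt-Rnr1, mt-Rnr2, mt-Nd5 and mt-Nd6. mt-Nd2 had 3562, 1191, 1022 and 1466 CPM in P56 sham leukocytes and 327, 438, 691 and 786 CPM in P1 sham leukocytes, a log2 fold change of 1.59 ± 0.431 (adjusted p = 0.004). mt-Cytb had 11134, 3638, 2989.7 and 4557 CPM in P56 sham and 1595, 1852, 3235 and 3156 CPM in P1 sham, a log2 fold change of 1.05 ± 0.409 (adjusted p = 0.0327). mt-Co1 had 46955, 13486, 11781 and 17223 CPM in P56 sham and 6575, 6954, 12746 and 9197 CPM in P1 sham, a log2 fold change of 1.15 ± 0.465 (adjusted p = 0.0388). P56 sham replicate 1 was far above the other libraries for all 3 genes, and the groups overlap for mt-Cytb and mt-Co1 and not for mt-Nd2. mt-Tc had 561, 201, 149.9 and 277 CPM in P56 sham and 43.8, 49.5, 71.5 and 59.4 CPM in P1 sham, with no overlap, and a log2 fold change of 2.24 ± 0.358 (adjusted p = 4.35e-05). mt-Nd6 had 511, 153, 169.8 and 245 CPM in P56 sham and 77.2, 104, 170.4 and 185 CPM in P1 sham, a log2 fold change of 0.92 ± 0.411 (adjusted p = 0.0582).

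The rRNAs of sham leukocytes spread widely within groups. mt-Rnr2 had 225014, 65726, 64263 and 93436 CPM in P56 sham and 30125, 30440.3, 52311 and 95883 CPM in P1 sham, and mt-Rnr1 had 19013, 5951, 6839.8 and 7979 CPM in P56 sham and 3345, 2982, 5748 and 37627 CPM in P1 sham. The P1 sham replicate 4, the highest for mt-Rnr1, is a library with much 18S rRNA. The log2 fold change with age was 1.07 ± 0.824 (adjusted p = 0.264) for mt-Rnr2 and 0.38 ± 0.811 (adjusted p = 0.696) for mt-Rnr1. Without P56 sham replicate 1, 12 members were called higher with age, and mt-Co1, mt-Nd1 and mt-Cytb were not among them. Without P1 sham replicate 1 or 2 these 3 were likewise not called. mt-Co1 also lost its call without P1 sham replicate 4 (adjusted p = 0.0604) or P56 sham replicate 4 (0.0548). The same held for mt-Co1 with no filter (0.0559) and without the libraries of over 5% 18S rRNA (0.0632). mt-Cytb lost its call without P56 sham replicate 4 (0.0501).

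After MI at P56, 17 of 19 members were called lower in leukocytes and 0 higher, against 30.7% of all genes higher and 28.8% lower. The 2 rRNAs were not called. The median log2 fold change was -1.74 over the 7 coding genes and 0.0247 over all genes. mt-Nd2 had 728, 801, 237 and 282 CPM in P56 MI leukocytes and 3562, 1191, 1022 and 1466 CPM in P56 sham leukocytes, a log2 fold change of -1.84 ± 0.431 (adjusted p = 0.00167). mt-Cytb had 2409, 2321, 996 and 1043 CPM in P56 MI, a log2 fold change of -1.64 ± 0.409 (adjusted p = 0.00262) against P56 sham. mt-Co1 had 9029, 9910.2, 4415 and 4106 CPM in P56 MI, a log2 fold change of -1.58 ± 0.465 (adjusted p = 0.00812). For these 3 genes every MI library was below every sham library. mt-Nd6 had 117, 104, 43.1 and 39.6 CPM in P56 MI and a log2 fold change of -1.81 ± 0.411 (adjusted p = 0.00126). mt-Tc had 93.9, 125, 51.0 and 48.4 CPM in P56 MI and a log2 fold change of -1.82 ± 0.358 (adjusted p = 0.000398), and neither gene's groups overlap. mt-Rnr2 had 53602, 47869.9, 7658 and 21429 CPM in P56 MI and missed the threshold, with a log2 fold change of -1.93 ± 0.824 (adjusted p = 0.0538), and mt-Rnr1 had 10615, 4651, 616 and 2288 CPM with a log2 fold change of -1.62 ± 0.811 (adjusted p = 0.097).

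At P1, 0 of 19 members were called after MI in leukocytes by limma and 1 by edgeR, with 1 at an unadjusted p under 0.05, against 22.6% of all genes higher and 22.6% lower. mt-Rnr2 had 50752, 27837, 39512 and 31059.5 CPM in P1 MI, a log2 fold change of -0.35 ± 0.824 (adjusted p = 0.754) against P1 sham, and mt-Rnr1 had 6849.7, 3788, 5179.6 and 4402 CPM, a log2 fold change of -0.47 ± 0.811 (adjusted p = 0.666). mt-Nd6 had 136, 129.9, 162 and 89.7 CPM in P1 MI and a log2 fold change of 0.00735 ± 0.411 (adjusted p = 0.99). The P1 groups overlap for all 3. The MI change itself differed between the ages for 16 of 19 members, all lower at P56, against 23.7% of all genes called higher and 21.5% lower. Among the 16 were mt-Tl1, mt-Ti, mt-Ta, mt-Ts2 and mt-Tt, whose calls add no support, as above. The difference in log2 fold change was -1.84 ± 0.594 (adjusted p = 0.019) for mt-Nd5, which had 749, 672, 219 and 250.2 CPM in P56 MI, 2780, 866, 1062 and 1348 CPM in P56 sham, 1083, 679.6, 976 and 668 CPM in P1 MI and 536, 596, 1057 and 1062 CPM in P1 sham. It was -1.82 ± 0.581 (adjusted p = 0.018) for mt-Nd6, -2.43 ± 0.507 (adjusted p = 0.00128) for mt-Tc and -1.53 ± 0.579 (adjusted p = 0.0415) for mt-Cytb. mt-Cytb lost its call without P1 sham replicate 1 or 2 or P56 sham replicate 1 or 4 (adjusted p = 0.0558 to 0.0861). The same held without P1 MI replicate 1, 3 or 4 or P56 MI replicate 3 or 4 (0.0507 to 0.0857). mt-Nd1 lost its call without P1 sham replicate 1 or 2, P1 MI replicate 1 or P56 MI replicate 3 or 4 (0.0542 to 0.0628). mt-Nd2 lost its call without P1 sham replicate 1 (0.0522) or P56 MI replicate 3 (0.0504). mt-Co1, with a difference of -1.54 ± 0.657 (adjusted p = 0.0676), and the rRNAs were not called. The contrasts share the sham libraries of each age.

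In leukocytes, cardiomyocyte markers moved in the same direction as the mitochondrial transcripts with age and after MI at P56. After MI at P1 no member was called by limma, while most cardiomyocyte markers were lower. With age 13 of 14 were higher in sham, and after MI 14 of 14 were lower at P56 and 12 of 14 at P1. Their summed level was 5918 to 20658 CPM in P56 MI, 82238 to 226417 CPM in P56 sham, 6158 to 16633 CPM in P1 MI and 20102 to 26296 CPM in P1 sham leukocytes. In P1 leukocytes the marker sums of MI and sham do not overlap, while the coding sums, 12719 to 19942 CPM in P1 MI and 11172 to 22095 CPM in P1 sham, do. Leukocyte markers summed to 5597 to 6879 CPM in P56 MI, 2675 to 4857 CPM in P56 sham, 5673 to 6733 CPM in P1 MI and 2164 to 3043 CPM in P1 sham. Endothelial markers summed to 210 to 323 CPM in P56 MI, 490 to 717 CPM in P56 sham, 547 to 1033 CPM in P1 MI and 4286 to 5131 CPM in P1 sham leukocytes. For fibroblast markers the sums were 2295 to 7207 CPM in P56 MI, 572 to 1754 CPM in P56 sham, 4296 to 7568 CPM in P1 MI and 3134 to 5064 CPM in P1 sham. The part of RNA from cardiomyocytes and other cells in the leukocyte results was not tested.

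**Figure D4:**
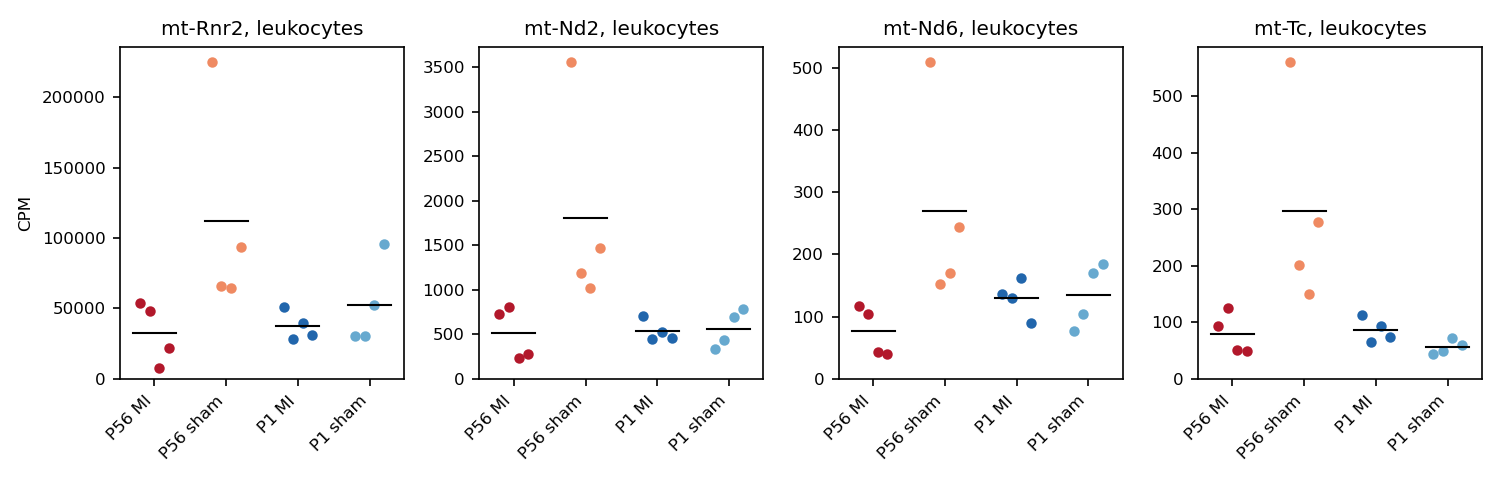
CPM of mt-Rnr2, mt-Nd2, mt-Nd6 and mt-Tc in the leukocyte libraries of the 4 groups; dots are libraries and lines are means of 4. P56 sham replicate 1 stands highest for mt-Nd2, and the P56 MI libraries lie below the P56 sham libraries for mt-Nd2, mt-Nd6 and mt-Tc.

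**Figure D5:**
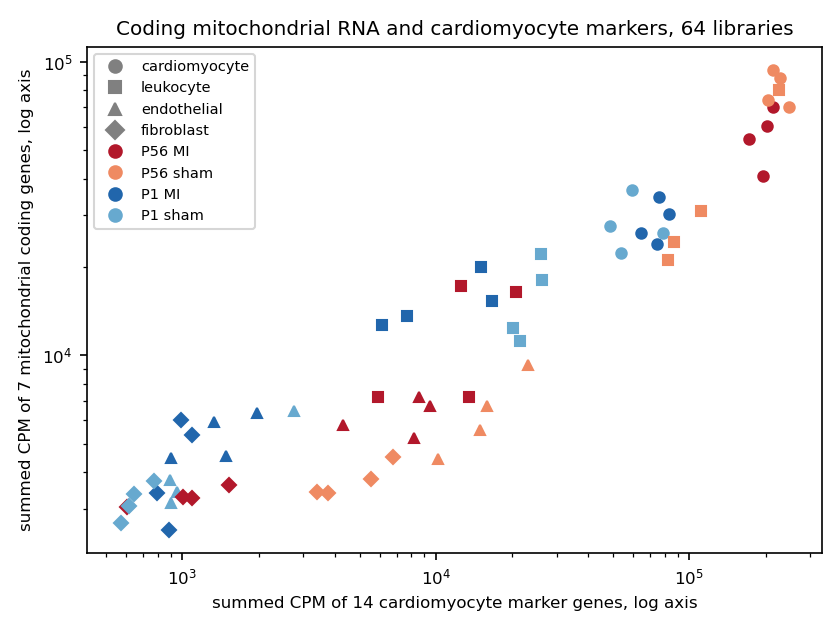
Summed level of 14 cardiomyocyte markers (x axis, CPM, log) and of the 7 mitochondrial coding genes (y axis, CPM, log) in the 64 libraries. Colour gives age and operation, and the shape of the symbol gives the population. Leukocyte libraries of P56 sham hearts have both sums high among the leukocytes.

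Endothelial cells showed the age difference and no called MI change. Of 22 members 13 passed the filter, mt-Te only with the help of the P1 MI libraries. In sham cells 11 of 13 were higher at P56 and 0 lower, against 33.6% of 15706 genes higher and 29.3% lower; mt-Nd1 and mt-Te were not called. mt-Nd2 had 386, 333, 267 and 198 CPM in P56 sham endothelial cells and 97.3, 107, 115 and 229 CPM in P1 sham endothelial cells, a log2 fold change of 1.15 ± 0.246 (adjusted p = 0.000623). mt-Cytb had 1308, 1010.2, 814 and 678 CPM in P56 sham and 443, 493, 560.1 and 994 CPM in P1 sham, a log2 fold change of 0.65 ± 0.221 (adjusted p = 0.0179). mt-Co1 had 5414, 3582, 3050 and 2403 CPM in P56 sham and 1812, 1882, 2107 and 3536 CPM in P1 sham, a log2 fold change of 0.62 ± 0.240 (adjusted p = 0.0329). P1 sham replicate 4 was the highest P1 library for all 3 genes, and through it the groups overlap. mt-Nd6 had 48.4, 48.8, 43.6 and 35.1 CPM in P56 sham and 21.0, 24.8, 25.4 and 45.9 CPM in P1 sham, a log2 fold change of 0.63 ± 0.212 (adjusted p = 0.0155). mt-Tc had 57.1, 45.8, 35.0 and 32.1 CPM in P56 sham and 9.37, 8.59, 13.5 and 21.1 CPM in P1 sham, a log2 fold change of 1.71 ± 0.280 (adjusted p = 5.38e-05), and its groups do not overlap. mt-Rnr2 had 25577, 18653, 16654 and 13945 CPM in P56 sham and 6102, 7831, 8765 and 13695 CPM in P1 sham, with no overlap and a log2 fold change of 1.07 ± 0.269 (adjusted p = 0.00238). mt-Rnr1, with 2338, 2325, 1622 and 1310.4 CPM in P56 sham and 623, 821, 1000.1 and 1537 CPM in P1 sham, had 0.97 ± 0.336 (adjusted p = 0.0187). mt-Co1 lost its call without P1 sham replicate 1, 2 or 3 or P56 sham replicate 1 or 2 (adjusted p = 0.0637 to 0.128). Median-of-ratios scaling also removed it (0.0504). mt-Cytb lost its call without P1 sham replicate 1 or 2 or P56 sham replicate 1 (0.0569 to 0.0704). mt-Rnr1 lost its call without P1 sham replicate 1 or P56 sham replicate 1 or 2 (0.0534 to 0.0702). For mt-Nd6 this held without P1 sham replicate 1 (0.0606).

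After MI 0 of 13 endothelial members were called at P56, by limma or by edgeR, and 0 had an unadjusted p under 0.05, against 12.5% of all genes higher and 7.88% lower. mt-Rnr2 had 19342, 18215, 15472 and 16579.5 CPM in P56 MI and a log2 fold change of -0.0735 ± 0.269 (adjusted p = 0.878) against P56 sham. mt-Rnr1 had 3653, 2407, 1574 and 1973 CPM with a log2 fold change of 0.31 ± 0.336 (adjusted p = 0.553), and mt-Nd6 had 48.2, 42.2, 32.3 and 39.9 CPM with a log2 fold change of -0.11 ± 0.212 (adjusted p = 0.745). The groups overlap for all 3. At P1, 0 were called by limma and 0 by edgeR, and 3 had an unadjusted p under 0.05, all higher after MI, against 0.0891% of all genes higher and 0.127% lower. mt-Nd6 had 47.2, 52.8, 40.1 and 29.2 CPM in P1 MI with a log2 fold change of 0.56 ± 0.212 (adjusted p = 0.25), mt-Rnr2 had 15964, 12956, 10214 and 9107 CPM with a log2 fold change of 0.44 ± 0.269 (adjusted p = 0.49), and mt-Rnr1 had 2742, 1678, 1142 and 947 CPM with a log2 fold change of 0.67 ± 0.336 (adjusted p = 0.385). The difference between the ages was called for 0 members by limma and 0 by edgeR, 3 had an unadjusted p under 0.05, and 3.39% of all genes were called higher and 2.02% lower. Without P1 sham replicate 4, 2 members were called after MI at P1. Without both P1 libraries numbered 4, sham and MI, 2 were also called, while all genes called rose from 34 to 472 of 15706. Cardiomyocyte markers were higher with age in 14 of 14 cases and lower after MI at P56 in 9 of 14, with sums of 4297 to 9469.9 CPM in P56 MI, 10192 to 23185 CPM in P56 sham, 899 to 1977 CPM in P1 MI and 892 to 2768 CPM in P1 sham. Their part in the age difference was not tested.

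In fibroblasts, mt-Nd2 and the tRNAs mt-Tc, mt-Tp and mt-Tq were called higher at P56 than at P1 in sham hearts. Of the 22 members 12 passed the filter, mt-Tq only with the help of the P56 sham libraries, so its calls add no support. With age 4 of 12 were higher and 0 lower, against 34.8% of 15729 genes higher and 32.2% lower, so the share of members called higher was near that of all genes. Without P1 sham replicate 2, mt-Nd2 (adjusted p = 0.0698) and mt-Tp (0.069) were not called, nor was mt-Tp without any 1 of P1 sham replicate 4 and P56 sham replicates 1 and 4 (0.0545 to 0.0653). The median log2 fold change was 0.25 over the 7 coding genes and 0.0327 over all genes. mt-Nd2 had 177, 144, 143 and 157 CPM in P56 sham fibroblasts and 100.5, 63.995, 89.8 and 115 CPM in P1 sham fibroblasts, a log2 fold change of 0.77 ± 0.270 (adjusted p = 0.0184). mt-Tc had 25.7, 22.7, 18.4 and 25.4 CPM in P56 sham and 11.1, 7.75, 12.8 and 11.4 CPM in P1 sham, a log2 fold change of 1.07 ± 0.215 (adjusted p = 0.000334). The groups do not overlap for either gene. mt-Nd6 had 30.6, 23.4, 31.4 and 27.4 CPM in P56 sham and 28.0, 19.3, 24.6 and 48.6 CPM in P1 sham, with a log2 fold change of -0.0179 ± 0.333 (adjusted p = 0.966). mt-Rnr2 had 13472, 8509, 9574 and 8962 CPM in P56 sham and 7176, 6201, 5103 and 10925 CPM in P1 sham, with a log2 fold change of 0.50 ± 0.311 (adjusted p = 0.168), and mt-Rnr1 had 2858, 916, 1647 and 924 CPM in P56 sham and 805, 709.7, 523 and 4871 CPM in P1 sham, with a log2 fold change of 0.36 ± 0.628 (adjusted p = 0.624). These 3 overlap between the ages.

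After MI the cysteine tRNA of fibroblasts was called in opposite directions at the 2 ages. mt-Tc had 16.6, 16.9, 12.6 and 13.2 CPM in P56 MI and 25.7, 22.7, 18.4 and 25.4 CPM in P56 sham, a log2 fold change of -0.62 ± 0.215 (adjusted p = 0.0245). At P1 it had 29.6, 34.9, 23.9 and 14.6 CPM in MI and 11.1, 7.75, 12.8 and 11.4 CPM in sham, a log2 fold change of 1.17 ± 0.215 (adjusted p = 0.0072). The MI and sham libraries do not overlap at either age. The P56 call of mt-Tc was lost without any 1 of P56 sham replicates 1 and 4 and P56 MI replicates 3 and 4 (adjusted p = 0.0617 to 0.0684). At P56, 3 of 12 members were lower and 0 higher, mt-Tc, mt-Tq with a log2 fold change of -0.95 ± 0.234 (adjusted p = 0.00303) and mt-Tp with a log2 fold change of -0.79 ± 0.308 (adjusted p = 0.0425), against 24.8% of all genes higher and 25.2% lower, so the share called lower was near that of all genes. The call of mt-Tq adds no support, as above, and that of mt-Tp was lost without any 1 of 6 P56 libraries (0.0625 to 0.153). At P1 mt-Tc was the only one called of 12, against 1.99% higher and 0.375% lower. The difference between the ages was called for 4 of 12, all lower at P56, against 16.2% of all genes higher and 15.5% lower. It was -1.79 ± 0.305 (adjusted p = 0.00046) for mt-Tc, -1.44 ± 0.330 (adjusted p = 0.00407) for mt-Tq, -1.45 ± 0.435 (adjusted p = 0.0185) for mt-Tp and -1.23 ± 0.440 (adjusted p = 0.0418) for mt-Rnr2. The call of mt-Rnr2 was lost without any 1 of 11 of the 16 libraries (adjusted p = 0.0541 to 0.0996), with no filter (0.102), with median-of-ratios scaling (0.0568) and without the libraries of over 5% 18S rRNA (0.0852). mt-Rnr2 had 7019.6, 8507, 6328 and 7262 CPM in P56 MI and 17292, 16189, 9467 and 7969.7 CPM in P1 MI, where replicates 1 and 2 are libraries with much 18S rRNA. mt-Rnr1 had 929.6, 1117, 739.7 and 858 CPM in P56 MI, with a log2 fold change of -0.65 ± 0.628 (adjusted p = 0.405) against P56 sham, and 5441, 4221, 1422 and 924 CPM in P1 MI, with a log2 fold change of 1.09 ± 0.628 (adjusted p = 0.457) against P1 sham. mt-Nd6 had 25.7, 29.2, 30.7 and 18.04 CPM in P56 MI, with a log2 fold change of -0.14 ± 0.333 (adjusted p = 0.752), and 75.8, 58.4, 34.7 and 19.3 CPM in P1 MI, with a log2 fold change of 0.54 ± 0.333 (adjusted p = 0.5). Without the libraries with over 5% 18S, mt-Tc was not called at P1, with a log2 fold change of 0.82, and 2 members were called for the difference. Cardiomyocyte markers of fibroblasts summed to 603 to 1525 CPM in P56 MI, 3400.3 to 6757 CPM in P56 sham, 795 to 1088 CPM in P1 MI and 569.8 to 773 CPM in P1 sham. The marker sums of MI and sham do not overlap at either age, and their part in the result was not tested.

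Nuclear genes of the same system gave a second view. A list of 48 genes covered transcription, DNA copying, cutting, stability and modification of mitochondrial RNA, and a list of 77 covered nuclear subunits of complexes I, III, IV and V. In P56 over P1 sham cardiomyocytes, 32 of 46 were higher and 3 lower on the RNA list (median log2 fold change 1.01), and 71 of 76 were higher and 0 lower on the subunit list (median 1.82), beside 33.3% of all genes higher, 37.0% lower and a median of -0.0915. On the RNA list Fastk, of a family of mitochondrial RNA-binding proteins, averaged 575 CPM in P56 sham and 76.1 CPM in P1 sham, a log2 fold change of 2.91 ± 0.246 (adjusted p = 7.10e-09). Peo1, the helicase that unwinds mitochondrial DNA, was higher, with a log2 fold change of 2.02 ± 0.181 (adjusted p = 1.61e-08), and Pde12, which trims poly(A) tails, was lower, with a log2 fold change of -1.65 ± 0.171 (adjusted p = 1.02e-07). Among the subunits, the muscle forms of complex IV led, Cox7a1 at a log2 fold change of 3.68 ± 0.227 (adjusted p = 1.29e-10) and Cox6a2 at a log2 fold change of 3.18 ± 0.252 (adjusted p = 3.30e-09), followed by the complex I subunit Ndufs7 at a log2 fold change of 2.85 ± 0.229 (adjusted p = 3.77e-09).

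The subunit list did not move alike in every population with age. It had 66 higher and 4 lower of 75 in leukocytes (median 0.91), 36 higher and 4 lower of 75 in endothelial cells (median 0.29) and 7 higher and 50 lower of 75 in fibroblasts (median -0.37). Over all genes 32.5% were higher and 34.5% lower in leukocytes, 33.6% higher and 29.3% lower in endothelial cells and 34.8% higher and 32.2% lower in fibroblasts. The RNA list had 30 higher and 3 lower of 47 in leukocytes, 24 higher and 9 lower of 47 in endothelial cells and 16 higher and 11 lower of 46 in fibroblasts, where both shares are near those of all genes or below them. In fibroblasts the muscle form Cox6a2 was nevertheless higher at P56, with a log2 fold change of 2.77 ± 0.237 (adjusted p = 3.35e-08), while Cox7a2l was lower, with a log2 fold change of -0.80 ± 0.0745 (adjusted p = 9.29e-08). Cox6a2 averaged only 10.1 CPM in P56 sham and 1.07 CPM in P1 sham fibroblasts. Cardiomyocyte markers of these libraries summed to 3400.3 to 6757 CPM in P56 sham and 569.8 to 773 CPM in P1 sham. The part of cardiomyocyte RNA in the Cox6a2 difference was not tested. Pde12 was lower at P56 in these 3 populations too, with a log2 fold change of -2.34 ± 0.0934 (adjusted p = 1.56e-11) in leukocytes, -2.39 ± 0.111 (adjusted p = 6.26e-11) in endothelial cells and -2.12 ± 0.124 (adjusted p = 4.47e-10) in fibroblasts. So was Polg2, a subunit of the polymerase that copies mitochondrial DNA, with a log2 fold change of -1.28 ± 0.148 (adjusted p = 1.36e-06) in leukocytes, -2.90 ± 0.208 (adjusted p = 5.05e-09) in endothelial cells and -1.98 ± 0.179 (adjusted p = 5.98e-08) in fibroblasts.

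After MI at P56 the subunit list had 2 higher and 67 lower of 75 in leukocytes, 39 higher and 6 lower of 75 in fibroblasts, 0 higher and 15 lower of 75 in endothelial cells and 0 higher and 1 lower of 76 in cardiomyocytes. Over all genes 30.7% were higher and 28.8% lower in leukocytes, 24.8% and 25.2% in fibroblasts, 12.5% and 7.88% in endothelial cells and 8.66% and 1.03% in cardiomyocytes. In the same leukocytes all 14 cardiomyocyte markers were lower after MI, with sums of 5918 to 20658 CPM in P56 MI and 82238 to 226417 CPM in P56 sham. In leukocytes the complex I subunit Ndufv1 averaged 92.0 CPM in P56 MI and 369.7 CPM in P56 sham, a log2 fold change of -1.94 ± 0.193 (adjusted p = 1.03e-06). The muscle form Cox8b was lower there, with a log2 fold change of -3.03 ± 0.332 (adjusted p = 2.12e-06). In fibroblasts the subunits called higher included Cox6b1, with a log2 fold change of 0.71 ± 0.0924 (adjusted p = 1.27e-05), whereas Cox6a2 was lower, with a log2 fold change of -2.20 ± 0.237 (adjusted p = 1.78e-06). Cox6a2 averaged 1.89 CPM in P56 MI and 10.1 CPM in P56 sham fibroblasts. Cardiomyocyte markers there summed to 603 to 1525 CPM in P56 MI and 3400.3 to 6757 CPM in P56 sham, and their part in this change was not tested. The RNA list had 5 higher and 26 lower of 47 in leukocytes, 7 higher and 5 lower of 46 in fibroblasts, 1 higher and 2 lower of 47 in endothelial cells and 0 higher and 2 lower of 46 in cardiomyocytes. The 2 cardiomyocyte calls were Slirp, a partner in stabilising mitochondrial messenger RNAs, with a log2 fold change of -0.74 ± 0.218 (adjusted p = 0.0364), and Mterf2, of a family of mitochondrial transcription factors, with a log2 fold change of -0.98 ± 0.292 (adjusted p = 0.0391). In leukocytes Mterf2 was also lower, with a log2 fold change of -1.71 ± 0.245 (adjusted p = 2.40e-05), as was Peo1, with a log2 fold change of -1.01 ± 0.153 (adjusted p = 3.86e-05). At P1 the subunit list had 0 higher and 8 lower of 75 in leukocytes and the RNA list 5 higher and 3 lower of 47, all below the 22.6% of all genes called in each direction. The RNA list at P1 had 0 higher and 3 lower of 46 in fibroblasts, beside 1.99% of all genes higher and 0.375% lower. The MI change differed between the ages for 2 subunits higher and 59 lower at P56 in leukocytes, beside 23.7% of all genes higher and 21.5% lower, with the complex III subunit Uqcrc1 showing a difference of -1.52 ± 0.280 (adjusted p = 0.000503).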

How the data were processed

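RNA was measured in 64 libraries, 4 for each of 16 groups taken from the labels. The authors deposited 1 table of a signal per gene and library that they named CPM, together with a gene length in another unit, bases. Per the submitters' processing notes the tools were Trimmomatic, STAR, HTSeq and edgeR, with the builds mm10, GRCm38 and GRCh38 named without roles; versions and the strand setting of the counting are not given in the sources used here. Per the labels' protocols rRNA was removed with Ribo-Zero Gold and stranded TruSeq libraries were read as single ends of 50 bases.

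The deposited signal summed to 776590.3 to 2627530 CPM per library rather than to a fixed total, so it was taken as reads over an effective library size. Values were whole multiples of 1 read (0.0340 to 0.136 CPM) for 99.999% of values within 0.01 reads, which gave 9.59 to 27.5 M reads. Reads carry no molecular identifiers, so the floor of 3 reads covers counting error only. Within groups 0 of 96 pairs of libraries were identical.

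Members were all genes on MT. For each population limma 3.58.1 (R 4.3.3) was fitted with a mean-variance trend to log2(CPM + 0.5) of the 16 libraries, over genes that reached 1 CPM in 4 or more of these libraries, and p-values were adjusted by Benjamini-Hochberg over all genes tested; a call needed an adjusted p under 0.05. Populations were compared over the 32 sham libraries. Every adjusted p printed comes from limma, and from these fits unless another setting or a left-out library is named with it. Alternatives were pseudocounts of 0.1 and 1, no filter, median-of-ratios scaling, scaling to reads of nuclear genes, plain shares of all reads, the quasi-likelihood test of edgeR 4.0.16 on recovered reads, the replicate number as a block, a fold of at least 2, leaving out libraries with over 5% 18S rRNA and leaving out each library in turn. Leaving out 2 pairs of libraries was added after seeing the data. Copies were searched in the GENCODE M21 transcripts with windows of 50 bases. Sums and ratios of members are descriptions with no test. Values by library were given for both rRNAs, mt-Nd6, the called coding gene of largest change per complex and the called tRNA of highest mean level, and further members were named after their values were seen. The members and gene lists were chosen with earlier results of these data known. The chromatin accessibility data of this series were not used here.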

Additional observations from a re-analysis of the deposited data

Results flagged for a closer look

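In 13 cases 1 library lay far from the other 3 of its group, by a gap test over 208 groups of values, in which chance alone picks about 1 in 20. P56 sham leukocyte replicate 1 was high in 4 of them. Its summed coding RNA was 80438 CPM, with the other 3 libraries at 21071 to 31059 CPM. Its mt-Co1 was 46955 CPM, with the other 3 libraries at 11781 to 17223 CPM, its mt-Nd4 was 2873 CPM, with the other 3 libraries at 917 to 1159 CPM, and its mt-Rnr1 was 19013 CPM, with the other 3 libraries at 5951 to 7979 CPM. The cardiomyocyte markers of that library summed to 226417 CPM, the highest of its group.

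In 3 libraries with over 5% 18S rRNA, mt-Rnr1 was far above the rest of the group. It was 54579 CPM, with the other 3 libraries at 6470.5 to 14584 CPM in P1 sham cardiomyocyte replicate 2, 4871 CPM, with the other 3 libraries at 523 to 805 CPM in P1 sham fibroblast replicate 4, and 37627 CPM, with the other 3 libraries at 2982 to 5748 CPM in P1 sham leukocyte replicate 4. P1 sham cardiomyocyte replicate 1 was high in tRNA, with mt-Tc at 280.3 CPM, with the other 3 libraries at 118 to 138 CPM and a summed tRNA level of 309.9 CPM, with the other 3 libraries at 137 to 165 CPM. P1 sham endothelial replicate 4 was high in mt-Nd2, at 229 CPM, with the other 3 libraries at 97.3 to 115 CPM, and in mt-Nd4, at 209 CPM, with the other 3 libraries at 95.8 to 114 CPM. P1 MI leukocyte replicate 1 was high in mt-Nd1, at 3705 CPM, with the other 3 libraries at 2328 to 2534 CPM. The low case was mt-Nd6 in P1 MI cardiomyocyte replicate 1, at 108 CPM, with the other 3 libraries at 155 to 164 CPM.

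The change after MI differed between P56 and P1 for 20 pairs of a member and a population, by the test of the difference in limma, and all were lower at P56. Given as the log2 fold change at P56 minus that at P1, the fibroblast differences were -1.79 for mt-Tc, -1.45 for mt-Tp, -1.44 for mt-Tq and -1.23 for mt-Rnr2. In leukocytes the coding genes differed by -1.84 (mt-Nd5), -1.82 (mt-Nd6), -1.82 (mt-Nd2), -1.71 (mt-Nd1), -1.69 (mt-Nd4) and -1.53 (mt-Cytb). The leukocyte tRNAs differed by -3.61 (mt-Tp), -3.22 (mt-Te), -2.43 (mt-Tc), -2.35 (mt-Tq), -2.13 (mt-Ti), -1.70 (mt-Ts2), -1.69 (mt-Ta), -1.65 (mt-Tt), -1.64 (mt-Tm) and -1.59 (mt-Tl1). Some of these passed the filter on low values only with the help of the P56 sham libraries. They were mt-Ti, mt-Ts2, mt-Ta, mt-Tt and mt-Tl1 in leukocytes and mt-Tq in fibroblasts, and their differences add no support.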

How the results depend on the processing

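Counts of called members are given below by setting, each beside the count reported. The cause of each change was not tested. As a share of all reads, mt-Cytb turned to -0.0385 in P56 over P1 sham cardiomyocytes, the cardiomyocyte MI count at P56 was 2 (reported 7), the leukocyte MI count at P1 was 1 (reported 0) and the population count at P56 was 10 (reported 19). Scaled to reads of nuclear genes the last 2 were 1 and 12. edgeR on recovered reads also gave 1 for leukocytes at P1. With no filter, fibroblasts had 10 members called with age (reported 4) and endothelial cells 18 (reported 11), and endothelial cells had 1 for MI at P56 and 1 for the difference between ages (reported 0 each). With a fold of at least 2, the counts were 4 for cardiomyocyte MI at P56, 2 for fibroblast age, 0 for fibroblast MI at P56 (reported 3), 5 for endothelial age and 2 for populations at P1 (reported 7). With a pseudocount of 1 the cardiomyocyte difference was 1 (reported 0). Without libraries of over 5% 18S, fibroblast MI at P1 was 0 (reported 1) and the fibroblast difference was 2 (reported 4). Without the P56 cardiomyocyte libraries numbered 3 the cardiomyocyte difference was 3 (reported 0), while all genes called rose from 270 to 3452 of 15461. Without the P1 endothelial libraries numbered 4 the endothelial counts were 2 for MI at P1 and 2 for the difference (reported 0 each). There all genes called rose from 34 to 472 for MI at P1 and from 850 to 950 for the difference, of 15706 tested.

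Leaving out 1 library at a time, the counts ranged from 4 to 11 for cardiomyocyte MI at P56 (4 without P56 MI replicate 1 or 4, 11 without P56 MI replicate 2) and from 0 to 3 for the cardiomyocyte difference (3 without P56 MI replicate 3, 1 without P56 MI replicate 2). For fibroblasts they ranged from 2 to 4 for age (2 without P1 sham replicate 2), from 1 to 3 for MI at P56 (1 without P56 sham replicate 1 or 4 or P56 MI replicate 3 or 4) and from 3 to 8 for the difference (8 without P1 MI replicate 3). For leukocytes they ranged from 12 to 16 for age, 0 to 1 for MI at P1 (1 without P1 MI replicate 4), 17 to 19 for MI at P56 and 13 to 17 for the difference. For endothelial cells they ranged from 7 to 12 for age (7 without P1 sham replicate 1), 0 to 2 for MI at P1 (2 without P1 sham replicate 4), 0 to 1 for MI at P56 (1 without P56 MI replicate 2) and 0 to 2 for the difference (2 without P1 sham replicate 4). For populations they ranged from 4 to 10 at P1 (4 without P1 sham cardiomyocyte replicate 1) and 16 to 20 at P56. Cardiomyocyte age stayed at 22, cardiomyocyte MI at P1 at 0 and fibroblast MI at P1 at 1. These fits also gave a value for each member called in the main fits within populations. Of these values 883 kept their direction and call and 77 kept their direction and lost the call. Members not called in the main fits were not followed in this way. Calls over all genes were not counted in the fits without 1 library, so these counts of members have no share beside them.

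Samples of 1 number were not treated as paired. Within populations, over 12 contrasts, the correlations of same-numbered deviations ran from -0.426 to 0.364. In 0 contrasts were all pairs above 0.1 or every sample closest to its own number. With 4 libraries per group this check cannot exclude pairing. Libraries of 1 number from different populations were not compared, so pairing across populations was not tested. With the number as a block, the counts were 22 for cardiomyocyte age, 6 for cardiomyocyte MI at P56, 5 for fibroblast age, 3 for the fibroblast difference and 20 for populations at P56, and equal to the reported counts elsewhere. The block moved mt-Nd6 in cardiomyocytes after MI at P56 to an adjusted p of 0.0536 and mt-Rnr2 for the fibroblast difference to 0.0545 (limma).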

Other observations

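The genes mt-Nd6 and mt-Nd5 overlap and are read from opposite strands. Per kilobase, mt-Nd6 was 48.0 to 75.3% of mt-Nd5 in P56 sham cardiomyocytes and 48.2 to 54.8% in P1 sham cardiomyocytes. It was 56.2 to 64.6% in P56 sham leukocytes and 50.6 to 61.2% in P1 sham leukocytes, and 48.4 to 57.9% in P56 sham endothelial cells and 52.3 to 61.5% in P1 sham endothelial cells. The ages overlap in each of these populations, unlike for the ratio of mt-Nd2 to mt-Cytb. P1 sham fibroblasts reached 57.8 to 91.3%, against 53.3 to 62.6% in P56 sham fibroblasts. After MI at P56 the ratio of mt-Nd2 to mt-Cytb in cardiomyocytes was 0.509, 0.670, 0.270 and 0.701, a wider range than the 0.399 to 0.499 of P56 sham cardiomyocytes. These ratios were chosen after their values were seen and were not tested.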
